A study of Homo sapiens with 6 samples.

Results

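The metallothioneins MT1E, MT1F, MT1G, MT1M, MT1X, MT2A and MT3, the zinc-sensing transcription factor MTF1, the zinc exporter SLC30A1 and the zinc importer SLC39A10 were compared between DMS53 cells, a human small cell lung cancer (SCLC) line, with and without enforced expression of ONECUT2 (OC2), a transcription factor of the cut-homeobox class. These 10 genes were chosen by name from the 62696 genes of the count tables, and all were present. The control group (3 libraries) carried an empty lentiviral vector with mGFP and a puromycin resistance gene, and the OC2-OE group (3 libraries) carried mGFP-tagged OC2 in such a vector, so that both groups shared transduction, the tag protein and puromycin selection. The cells were a selected population from 1 line and expression was constitutive, so early and late effects of OC2 cannot be told apart. The study describes the libraries as independent experiments. The labels do not say that they came from separate cultures, and the p-values measure only the spread between these libraries. That spread was small, with a common biological coefficient of variation of 2.2% over the genes tested.

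Metallothioneins are small proteins, rich in cysteine, that bind zinc and copper through their thiol groups and also take up toxic metals such as cadmium. MTF1 senses free zinc in the cell, binds metal response elements upstream of metallothionein genes and of SLC30A1, and raises their transcription when zinc is high. Members of the SLC30 family move zinc out of the cytosol, into organelles or out of the cell, and members of the SLC39 family move it into the cytosol. MT1 and MT2 genes are expressed in many tissues and are also induced by glucocorticoids and inflammatory signals, whereas MT3 is best known from the brain.

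The 7 metallothioneins among the members lie in 1 cluster on chromosome 16 (GRCh38). On the plus strand lie MT3 (chr16:56589074-56591088), MT2A (chr16:56608584-56609497), MT1E (chr16:56625475-56627112), MT1M (chr16:56632659-56633981), MT1F (chr16:56657731-56660698) and MT1X (chr16:56682470-56684196). MT1G (chr16:56666730-56668065) lies on the minus strand. The coding sequences of MT1E and MT2A are shown because the first was called higher and the second was not called, and because their likeness bears on how reads are assigned. They run 5′ to 3′ from the start to the stop codon, from GENCODE 29 transcripts on GRCh38, with the cysteine codons in capitals.
MT1E: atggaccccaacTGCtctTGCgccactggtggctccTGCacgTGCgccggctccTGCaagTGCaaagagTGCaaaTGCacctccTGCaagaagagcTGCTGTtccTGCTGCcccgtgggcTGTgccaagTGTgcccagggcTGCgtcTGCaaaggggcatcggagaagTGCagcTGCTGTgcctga
MT2A: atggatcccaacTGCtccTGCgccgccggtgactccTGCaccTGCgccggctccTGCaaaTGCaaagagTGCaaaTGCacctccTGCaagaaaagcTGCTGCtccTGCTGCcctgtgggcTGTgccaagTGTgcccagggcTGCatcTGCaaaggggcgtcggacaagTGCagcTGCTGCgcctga
Both reading frames span 3 exons and hold 20 cysteine codons among 61 codons. Between pairs of MT1 genes the coding sequences were 88.7% to 93.1% identical (10 pairs). MT2A was 89.8% to 93.7% identical to the MT1 genes (5 pairs).

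Read pairs that aligned to more than 1 place, or to exons of more than 1 gene, were not counted by the authors. Such pairs lower the count of a gene rather than adding to a neighbour's. Whether other pairs were aligned to the wrong copy was not examined. Of the 100-base windows of the spliced transcripts, all were found in no other gene for MT1E, MT1F, MT1G, MT1M and MT2A, and 80.9% for MT1X. Of 50-base windows, the share found in no other gene was 54.9% for MT1X, 79.8% for MT1G, 92.9% for MT1M, 94.7% for MT1E, 95.1% for MT2A and 96.4% for MT1F. The read length is not given in the sources used here. For MT1X, AC026461.1 was the only other gene that held any of its 100-base windows (67 windows). Of its 50-base windows, 117 were found in AC026461.1, 47 in MT1G and 38 in MT1XP1. MT1X shared 321 of its 1727 exonic bases (18.6%) with the overlapping gene ENSG00000259827 on the same strand. Whether this gene is AC026461.1 was not checked, so the shares of windows and of bases may describe the same overlap. ENSG00000259827 had no counts in any library, but pairs that fell on both genes were not counted. Of the members, MT1X is the one whose assignment of reads is the least certain, and values of MT1 genes are given here with that limit on the assignment of reads among copies.

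Upstream sequences were available for MT2A, MT1X, MTF1, SLC30A1 and SLC39A10 among the members. The 250 bases before the start site are shown for the 3 that held the core of a metal response element, the sequence that MTF1 binds, searched as TGCACNC and TGCGCNC on both strands and given in capitals (RefSeq, GRCh38.p14, 5′ to 3′ on the strand of the gene).
MT2A (chr16:56608334-56608583, plus strand): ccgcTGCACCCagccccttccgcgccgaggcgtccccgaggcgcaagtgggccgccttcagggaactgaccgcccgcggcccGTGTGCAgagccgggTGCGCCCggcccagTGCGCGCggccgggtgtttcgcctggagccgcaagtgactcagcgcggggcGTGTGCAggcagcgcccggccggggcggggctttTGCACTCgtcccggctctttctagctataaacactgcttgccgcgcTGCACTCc
MT1X (chr16:56682220-56682469, plus strand): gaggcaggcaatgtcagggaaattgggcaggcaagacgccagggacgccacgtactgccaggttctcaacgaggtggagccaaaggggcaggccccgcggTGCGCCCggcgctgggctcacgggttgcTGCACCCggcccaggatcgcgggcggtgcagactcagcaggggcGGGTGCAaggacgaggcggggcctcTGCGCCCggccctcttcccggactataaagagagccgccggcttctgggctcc
SLC30A1 (chr1:211579162-211579411, minus strand): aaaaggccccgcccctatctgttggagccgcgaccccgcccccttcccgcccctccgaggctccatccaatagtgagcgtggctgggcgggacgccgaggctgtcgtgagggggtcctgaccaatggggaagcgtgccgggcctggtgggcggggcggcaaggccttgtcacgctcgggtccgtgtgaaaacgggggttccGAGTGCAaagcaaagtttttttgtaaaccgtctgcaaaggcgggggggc
The MT2A sequence held 7 matches, 5 of them on the printed strand, the MT1X sequence held 4 and the SLC30A1 sequence 1. Among 35116 promoters of the same length, 24.8% held at least 1 match and 0.370% held at least 4. No match was found in the windows of MTF1 or SLC39A10. These matches are a description of the letters and do not show binding.

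Libraries held 16533284 to 19099337 assigned read pairs, and levels are given as CPM, counts in proportion to library size, scaled by the trimmed mean of M values (TMM). On this scale the limit that 3 counts set was 0.157 to 0.184 CPM per library. ONECUT2 itself had 394 to 465 counts in the control libraries and 68853 to 74031 in the OC2-OE libraries, a count that includes the introduced copy wherever its reads match the gene. After a filter on low counts, the groups were compared in 17307 genes by quasi-likelihood F tests in edgeR, and a gene was called at a Benjamini-Hochberg adjusted p below 0.001. The response of the transcriptome was broad: 56.5% of the genes tested were called, with 27.8% of the genes tested higher in OC2-OE and 28.7% lower. At an adjusted p below 0.05 the share called was 71.4%. The balance of directions depended on the scaling, with 4810 genes called higher and 4966 lower under TMM. Scaling by library size only gave 5337 higher and 4427 lower, and upper-quartile scaling 5256 and 4521. Groups did not overlap for 73.2% of the genes tested, with OC2-OE above control for 36.5% and below it for 36.7%. Against this background a call by itself says little about a gene, and the size and precision of each change carry the information.

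Of the 10 members, 9 passed the filter and MT1M did not. MT1E and MT1F were called higher in OC2-OE, MT3 and SLC30A1 were called lower, and MT1G, MT1X, MT2A, MTF1 and SLC39A10 were not called. The share called, 4 of 9, is to be read beside the 56.5% over all genes tested, and the same 4 members were called at an adjusted p below 0.05. Without control 2, control 3 or OC2-OE 2, 1 member was called higher and 1 lower. The groups did not overlap for 6 members, with OC2-OE above control for MT1E, MT1F, MT1G and MT1M and below it for MT3 and SLC30A1. Of the 9 members tested this is 5, beside 73.2% of all genes tested. The median log2 fold change of the 9 was 0.05, with a range from -0.72 to 1.02, and that of all genes tested was 0.007. Single libraries moved the median of the 9, to 0.01 without OC2-OE 1, 0.03 without control 1 or OC2-OE 2, and 0.13 without control 3 or OC2-OE 3. Scaling by library size only put it at 0.10, and upper-quartile scaling at 0.096. The median of all genes tested was then 0.058 and 0.050. The genes of the cluster did not move together: MT1E rose, MT3 fell, and MT2A, the metallothionein with the most counts, showed no detectable change.

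**Figure D1:**
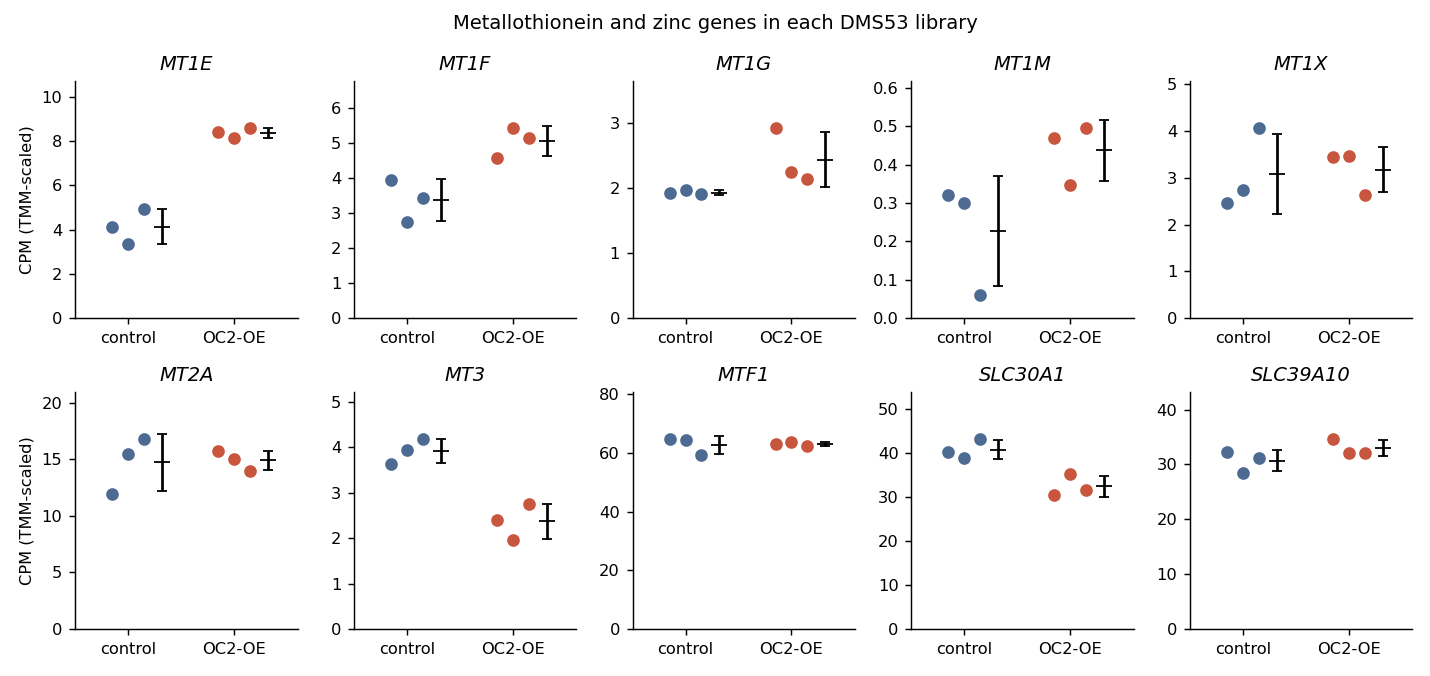
Level of each of the 10 members in the 6 libraries, in TMM-scaled CPM, with the mean and SD of each group (n = 3). The 3 OC2-OE libraries lie above all control libraries for MT1E and MT1F and below them for MT3 and SLC30A1, whereas the groups overlap for MT2A, MT1X, MTF1 and SLC39A10.

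MT1E (ENSG00000169715.15), one of the widely expressed MT1 forms, had 77, 56 and 80 counts in control libraries 1 to 3 and 161, 141 and 156 in the OC2-OE libraries. These are levels of 4.12, 3.35 and 4.92 CPM in control and 8.40, 8.14 and 8.56 CPM in OC2-OE. Every OC2-OE library lay above every control library, and the OC2-OE libraries differed less among themselves than the controls did. The mean rose from 4.13 ± 0.786 to 8.37 ± 0.215 CPM (SD, n = 3 each), a log2 fold change of 1.02 ± 0.13 (SE) or 2.03-fold (95% confidence interval 1.69 to 2.43), with an edgeR adjusted p of 1.84e-11. The call held under all 15 refits with other settings or a library left out.

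MT1F (ENSG00000198417.7), another MT1 form, had 74, 46 and 56 counts in control and 88, 94 and 94 in OC2-OE. The levels were 3.96, 2.75 and 3.44 CPM in control and 4.59, 5.42 and 5.16 CPM in OC2-OE. The groups did not overlap, but the highest control and the lowest OC2-OE library were close. The mean was 3.38 ± 0.608 CPM in control and 5.06 ± 0.425 CPM in OC2-OE, 1.48-fold (1.19 to 1.84) with an edgeR adjusted p of 0.000901, just inside the threshold. This call was lost without control 2 (log2 fold change 0.44, edgeR adjusted p = 0.0191), without control 3, without OC2-OE 2 and without OC2-OE 3, and with DESeq2 (adjusted p = 0.0103), limma voom or no filter on low counts. Over the 15 refits the log2 fold change of MT1F ran from 0.44 to 0.70, and the adjusted p from 0.000326 to 0.0191.

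MT1G (ENSG00000125144.14) and MT1M (ENSG00000205364.4), also MT1 forms, were at lower levels. MT1G had 36, 33 and 31 counts in control (1.93, 1.97 and 1.91 CPM) and 56, 39 and 39 in OC2-OE (2.92, 2.25 and 2.14 CPM). The OC2-OE libraries lay above the controls, with OC2-OE 1 apart from the other OC2-OE libraries, and the log2 difference of 0.34 ± 0.22 (SE; 95% interval -0.09 to 0.77) was not called, with an edgeR adjusted p of 0.158. Without OC2-OE 1 the log2 difference of MT1G was 0.19. MT1M had 6, 5 and 1 counts in control and 9, 6 and 9 in OC2-OE, close to the limit that 3 counts set. Its 12 counts in control and 24 in OC2-OE gave a ratio of levels of 1.89 with a counting interval from 0.909 to 4.15, so that a difference was not detectable at this depth.

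MT1X (ENSG00000187193.9), which is known to respond to zinc and cadmium, had 46, 46 and 66 counts in control and 66, 60 and 48 in OC2-OE. Levels were 2.46, 2.75 and 4.06 CPM in control and 3.44, 3.46 and 2.63 CPM in OC2-OE. The groups overlapped, with control 3 the highest library and control 1 the lowest. The log2 difference was 0.05 ± 0.19 (SE; 95% interval -0.31 to 0.42), and its sign depended on single libraries. The edgeR adjusted p was 0.805.

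MT2A (ENSG00000125148.7), the human MT2 form and usually the most abundant, had 223, 259 and 273 counts in control and 301, 260 and 255 in OC2-OE. Levels were 11.9, 15.5 and 16.8 CPM in control and 15.71, 15.01 and 13.996 CPM in OC2-OE. All OC2-OE libraries lay within the range of the controls, of which control 1 was the lowest. The means were 14.7 ± 2.51 and 14.9 ± 0.860 CPM (SD, n = 3 each), and the fold of 1.02 had a 95% interval from 0.901 to 1.15 with an edgeR adjusted p of 0.799. The interval of MT2A ended below the start of that of MT1E, its neighbour on the same strand, and the difference between the 2 genes was not itself tested.

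MT3 (ENSG00000087250.9), also called growth inhibitory factor and known from neurons, was the metallothionein that fell. It had 68, 66 and 68 counts in control and 46, 34 and 50 in OC2-OE. Levels were 3.64, 3.94 and 4.18 CPM in control and 2.40, 1.96 and 2.74 CPM in OC2-OE, with every OC2-OE library below every control. The mean dropped from 3.92 ± 0.272 to 2.37 ± 0.392 CPM, 0.608-fold (0.473 to 0.782), with an edgeR adjusted p of 0.000280. The call was lost without control 2, control 3, OC2-OE 1 or OC2-OE 2 and with DESeq2 (adjusted p = 0.0044). The adjusted p over the 15 refits reached 0.00581 at most and the log2 fold change of MT3 stayed between -0.83 and -0.60.

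The other metallothionein genes added little. MT1A had 84 counts in control and 97 in OC2-OE, levels of 1.63 ± 0.418 and 1.77 ± 0.190 CPM, and was not called (log2 difference 0.12 ± 0.25 SE, edgeR adjusted p = 0.665). MT1B, MT1H and MT1HL1 had 0 to 2 counts in each group and MT4 had none. Of the 12 metallothionein genes, 7 were tested, of which 2 rose, 1 fell and 4 were not called, with a median log2 fold change of 0.12. This median was 0.06 without OC2-OE 1, 0.07 without control 2, 0.21 without OC2-OE 2 and 0.30 without control 3. Without control 2, control 3 or OC2-OE 2, and with DESeq2, 1 metallothionein was called higher and 0 lower. Over all genes tested 56.5% were called, so the share called was no higher among the metallothioneins.

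**Figure D2:**
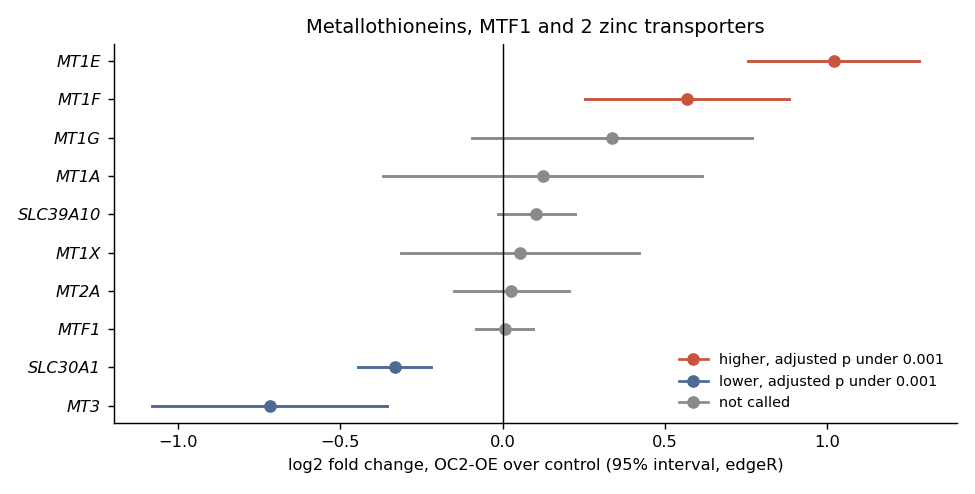
Log2 fold change (OC2-OE over control) of the 9 members tested and of MT1A, which is not a member, with 95% confidence intervals from the edgeR fit. The interval of MT1E lies wholly above that of MT2A, and those of MT3 and SLC30A1 lie wholly below 0.

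Summed over all metallothionein genes, the level was 30.0, 31.7 and 37.5 CPM in control and 40.0, 38.1 and 37.5 CPM in OC2-OE. Control 3 and OC2-OE 3 were nearly equal. The mean sum was 33.1 ± 3.92 CPM in control and 38.6 ± 1.29 CPM in OC2-OE, a ratio of 1.17, and without MT1E the ratio was 1.04. MT1E thus carried most of the difference in the sum.

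The make-up of the metallothionein counts changed more than their sum. MT1E made up 13.7%, 10.5% and 13.1% of these counts in control and 21.0%, 21.3% and 22.8% in OC2-OE. The MT3 share went the other way, from 12.1%, 12.4% and 11.1% to 5.997%, 5.14% and 7.31%. MT2A had the largest share in every library, 39.8%, 48.8% and 44.8% in control and 39.2%, 39.3% and 37.3% in OC2-OE. The shares of MT1E and of MT3 did not overlap between groups, and that of MT2A was lower in each OC2-OE library although its own level was not detectably changed. MT1F made up 10.3 ± 2.48% and 13.1 ± 1.47% (SD, n = 3 each). Shares of counts are not corrected for gene length.

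**Figure D3:**
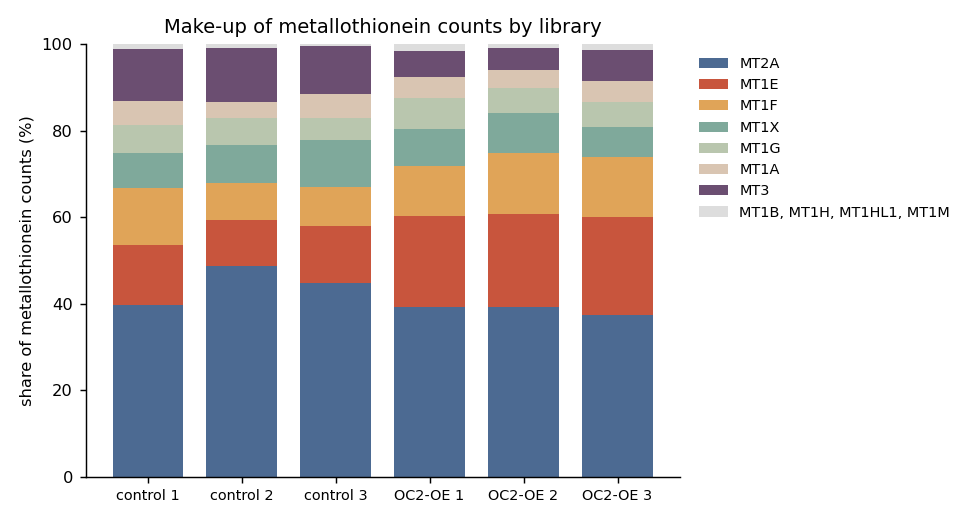
Share of all metallothionein counts taken by each gene, in percent, in each of the 6 libraries. MT1E takes 10.5% to 13.7% in control and 21.0% to 22.8% in OC2-OE, and MT3 takes 11.1% to 12.4% and 5.14% to 7.31%.

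Among the regulators and transporters, MTF1 (ENSG00000188786.10; chr1:37809574-37859592, minus strand) did not differ. It had 1209, 1076 and 964 counts in control and 1208, 1105 and 1138 in OC2-OE. The levels were 64.7, 64.3 and 59.3 CPM in control and 63.0, 63.8 and 62.5 CPM in OC2-OE, and all OC2-OE libraries lay within the control range. The fold was 1.00 with a 95% interval from 0.945 to 1.07 (edgeR adjusted p = 0.912), which bounds any change of the MTF1 transcript more tightly than for any metallothionein.

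SLC30A1 (ENSG00000170385.10; chr1:211571568-211579161, minus strand), which exports zinc across the plasma membrane and is itself a target of MTF1, fell. It had 750, 650 and 701 counts in control and 584, 608 and 574 in OC2-OE. Levels were 40.1, 38.8 and 43.1 CPM in control and 30.5, 35.1 and 31.5 CPM in OC2-OE, with no overlap between groups. The mean dropped from 40.7 ± 2.18 to 32.4 ± 2.42 CPM, 0.794-fold (0.735 to 0.859), with an edgeR adjusted p of 1.28e-07. It was called lower in all 15 refits, with log2 fold changes from -0.39 to -0.28, but not where a log2 change of at least 1 in size was also required.

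SLC39A10 (ENSG00000196950.14; chr2:195575977-195737702, plus strand), a zinc importer of the plasma membrane, had 601, 477 and 508 counts in control and 663, 555 and 586 in OC2-OE. The levels of 32.2, 28.5 and 31.2 CPM in control and 34.60, 32.03 and 32.16 CPM in OC2-OE overlapped. The log2 difference of 0.10 ± 0.060 (SE; 95% interval -0.01 to 0.22) was not called, with an edgeR adjusted p of 0.111. Without control 2 the log2 difference of SLC39A10 was 0.05 and without OC2-OE 1 it was 0.07, and it kept its sign without each library.

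To compare levels between genes, CPM was divided by the merged exon length in kilobases. In control, MT2A was highest at 16.1 ± 2.75 CPM per kb, followed by MTF1 (7.86), SLC30A1 (6.91), SLC39A10 (4.43), MT1E (3.93), MT1G (2.58), MT3 (2.34), MT1F (1.83), MT1X (1.79) and MT1M (0.445). In OC2-OE, MT2A stayed highest at 16.3 ± 0.941 CPM per kb, and MT1E at 7.95 ± 0.204 stood beside MTF1 at 7.90. SLC39A10 and MT1E in control, MT1F and MT1X in control, and MT1E and MTF1 in OC2-OE did not differ beyond their spread. Merged exons were longer than the GENCODE 29 transcript used for comparison for every member but MT1M. By the length of that transcript, a choice made after seeing the data, MT3 (6.89 ± 0.478 CPM per kb), MT1X (6.87 ± 1.89) and MT1E (5.87 ± 1.12) did not differ beyond their spread in control, and MT1E in OC2-OE reached 11.9. MT2A was highest in both groups by either length.

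The calls among the other zinc transporters are to be read beside the 56.5% of all genes tested that were called, 27.8% higher and 28.7% lower. Of 10 SLC30 genes, 9 were tested, of which 5 rose, 1 (SLC30A1) fell and 3 were not called, with a median log2 fold change of 0.29. SLC30A10, best known for manganese export, rose from 0.256 ± 0.105 to 1.12 ± 0.316 CPM (13 and 61 counts in all; log2 fold change 2.12 ± 0.43 SE, edgeR adjusted p = 5.50e-06). SLC30A2, which loads zinc into vesicles, rose from 0.589 ± 0.187 to 2.49 ± 0.380 CPM (30 and 137 counts; 2.09 ± 0.29, edgeR adjusted p = 2.53e-10). SLC30A4, a transporter of endosomal and secretory vesicles, rose from 3.78 ± 0.282 to 8.30 ± 0.295 CPM (1.13 ± 0.13, edgeR adjusted p = 4.01e-13). SLC30A1 was the only SLC30 gene called lower by edgeR. SLC30A10 and SLC30A2, with the largest log2 fold changes of the family, were at low levels in both groups. SLC30A10 had 3, 4 and 6 counts in control and SLC30A2 had 7, 12 and 11, so both passed the filter through the OC2-OE libraries, where they are high. With at least 10 counts required in every library neither was tested, and 3 of 6 SLC30 genes rose and 1 fell.

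Of 14 SLC39 genes, 12 were tested, of which 5 rose, 2 fell and 5 were not called, with a median log2 fold change of 0.13. Without control 1 the median was 0.06, and 4 were called higher and 3 lower. SLC39A13, a zinc transporter of the secretory pathway, rose from 13.9 ± 0.856 to 28.8 ± 0.957 CPM (log2 fold change 1.05 ± 0.073 SE, edgeR adjusted p = 1.24e-26). SLC39A8, which imports zinc, manganese and cadmium at the plasma membrane, fell from 62.9 ± 2.80 to 35.8 ± 0.815 CPM (-0.81 ± 0.050, edgeR adjusted p = 9.45e-31). SLC39A9, found on the Golgi and the plasma membrane, fell from 135 ± 2.26 to 93.3 ± 4.16 CPM (-0.54 ± 0.035, edgeR adjusted p = 1.04e-28). SLC39A5, at a log2 difference of -0.83, lay just outside the threshold (edgeR adjusted p = 0.00109).

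**Figure D4:**
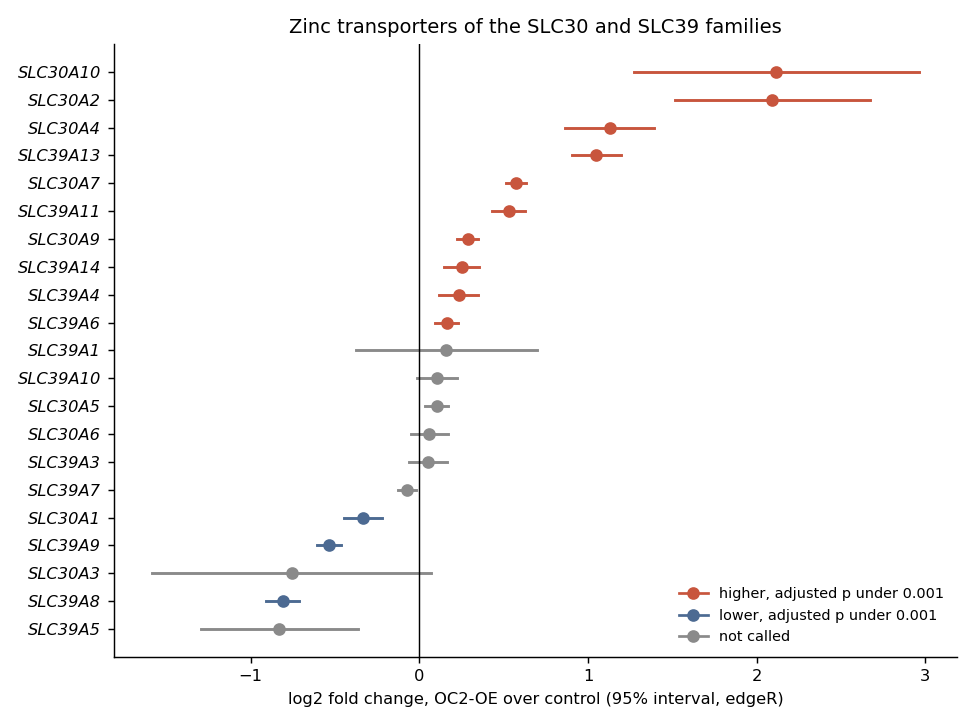
Log2 fold change (OC2-OE over control) of the SLC30 and SLC39 genes tested, with 95% confidence intervals from the edgeR fit. Both families hold genes above and below 0, from 2.12 for SLC30A10 to -0.83 for SLC39A5.

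Metallothioneins also bind copper, and genes of copper handling were listed beside them, again against 56.5% called over all genes tested. Of 13 such genes, 12 were tested, 5 rose and 3 fell, with a median log2 fold change of 0.05. This median was 0.02 without OC2-OE 2, 0.03 without control 3, 0.09 without control 2 and 0.10 without OC2-OE 1, and 3 were called higher without control 1, OC2-OE 1 or OC2-OE 2. CCS, the chaperone that loads copper onto superoxide dismutase, went from 34.1 to 53.7 CPM (0.66 ± 0.054 SE). The copper-transporting ATPases ATP7A and ATP7B went from 22.2 to 33.5 CPM (0.59) and from 43.0 to 59.9 CPM (0.48), and all 3 were called higher. Of 10 genes known to be induced by glucocorticoids, which also act on MT2A, all were tested, 5 rose and 3 fell, with a median of 0.23. NFKBIA, the inhibitor of NF-kB and also a target of it, rose from 21.7 to 178 CPM (3.05), SGK1, a kinase of ion transport, rose from 1.87 to 6.03 CPM (1.68), and ZBTB16, a zinc finger repressor, fell from 2.15 to 0.543 CPM (-1.96). ZBTB16 had 14, 7 and 9 counts in OC2-OE and passed the filter through the control libraries, where it is high. With at least 10 counts required in every library it was not tested, and 5 of 9 listed genes rose and 2 fell, with a median of 0.35.

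Genes within 500 kb of the metallothionein cluster on either side were described to place MT1E and MT3 among their neighbours. Of 41 such genes, 13 were tested, 3 rose, 5 fell and 5 were not called, with a median log2 fold change of -0.06, which was -0.03 without OC2-OE 1 and -0.04 without OC2-OE 2. The median was -0.01 with scaling by library size only, -0.02 with upper-quartile scaling and -0.14 with no filter on low counts. CPNE2, a calcium-dependent membrane-binding protein, fell from 38.9 ± 1.00 to 17.7 ± 0.678 CPM (log2 fold change -1.14 ± 0.064 SE). GNAO1, the G protein alpha subunit of neurons and neuroendocrine cells, fell from 63.5 ± 2.31 to 31.0 ± 0.669 CPM (-1.03 ± 0.051). BBS2, a subunit of the BBSome of the primary cilium, rose from 25.6 ± 0.585 to 35.5 ± 0.936 CPM (0.47 ± 0.060). Calls in 8 of 13 neighbours, in both directions, are near the 56.5% called over all genes tested. The count was 6 of 7 within 250 kb and 16 of 24 within 1000 kb, with medians of -0.15 and -0.08.

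**Figure D5:**
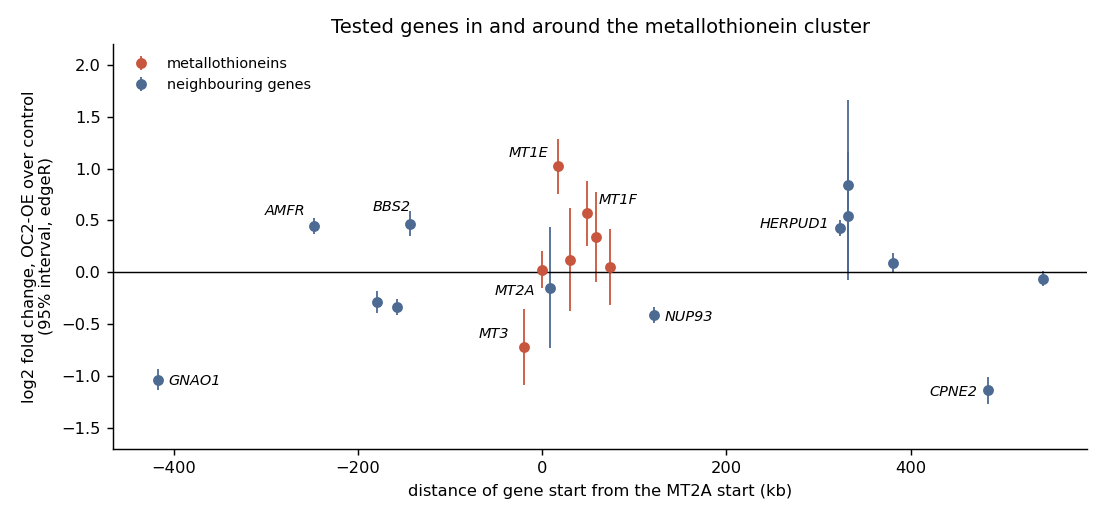
Log2 fold change (OC2-OE over control) of the metallothioneins and their tested neighbours against the distance of each gene's start from that of MT2A in kilobases, with 95% confidence intervals from the edgeR fit. GNAO1 and CPNE2, on opposite sides of the cluster, lie near -1, and MT1E is at 1.02.

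The identity of the cells was checked with markers of neuroendocrine (NE) cells and of other cell types. The summed NE markers were 1135 to 1172 CPM in control and 632 to 649 CPM in OC2-OE, with 5 of 6 called lower and CHGA called higher, so the line carried NE transcripts in every library but at a lower summed level in OC2-OE. Calls in these marker lists stand beside 56.5% of all genes tested called, 27.8% higher and 28.7% lower. Fibroblast markers summed to 20.9 to 23.7 CPM in control and 27.4 to 30.9 CPM in OC2-OE, mostly from COL1A1. Of these 5 genes only COL1A1 and COL1A2 were tested. COL1A1 was called higher, and COL1A2 was not called (log2 difference 1.17, edgeR adjusted p = 0.00214). COL3A1, DCN and LUM had 6 counts or fewer in each group. Leukocyte markers summed to 0.359 to 0.642 CPM in control and 2.08 to 2.91 CPM in OC2-OE, mostly from LYZ (21 and 122 counts). PTPRC had 0 and 3 counts and CD3E had 0. LYZ was the only one of the 5 leukocyte markers that was tested, and it was called higher. It had 10, 5 and 6 counts in control and passed the filter through the OC2-OE libraries, where it is high. Endothelial markers summed to 2.99 to 3.96 CPM in control and 2.36 to 3.35 CPM in OC2-OE. PECAM1 had 125 and 134 counts, CDH5 had 52 and 3, and VWF had 1 and 17. Of these 3 genes only PECAM1 and CDH5 were tested. PECAM1 was not called and CDH5 was called lower. CDH5, the gene called, had 1 count in each OC2-OE library and passed the filter through the control libraries, where it is high. VWF, which went the other way, was not tested. The part of these differences in the MT1E, MT3 and SLC30A1 results was not tested. In bulk RNA, fewer cells that express a gene and less of its RNA per cell cannot be told apart, and this holds for each member.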

How the data were processed

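Poly(A) RNA-Seq libraries were stranded and paired. Per the labels and the submitters' processing notes, the authors checked reads with FastQC 0.11.8, aligned them to GRCh38 with STAR 2.7.9a and counted read pairs per gene with featureCounts 1.6.0 and GENCODE 42, reverse-stranded, without multi-mapping pairs and without pairs that fell on more than 1 gene. The deposited values are raw counts, 1 table per library. The edgeR and limma packages are also named in these notes.

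From these counts, edgeR 4.0.16 gave TMM scaling and filterByExpr filtering. It also gave a quasi-likelihood test of OC2-OE against control in 17307 genes (adjusted p below 0.001, as in the study's methods). On simulated counts, with equal dispersion for all genes and few changed genes, 83 of 100 changes of 1.5-fold were called. Of 100 changes of 2-fold, 96 were called, with 0 false calls. The data differ in both settings, so these shares do not carry over to the members. DESeq2 1.42.0, limma 3.58.1 (voom), other scalings, filters and thresholds, and each library left out were alternatives. Intervals on counts cover counting error only. Named genes were the members, every metallothionein with counts, ONECUT2, the 3 called genes with the largest change in each other list, and the 5 genes most like MT2A across libraries; SLC39A5 and the marker genes were named after their values were seen. The members and lists were chosen with earlier results of these data known, and the lists of other genes from general knowledge. Library totals are in the report.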

Additional observations from a re-analysis of the deposited data

How the results depend on the processing

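MT1E and SLC30A1 were called in the same direction in all 15 refits with other settings or a library left out. The members called higher numbered 1 instead of 2 (MT1E without MT1F) with DESeq2, limma voom, no filter on low counts and the replicate block, and the members called lower numbered 1 with DESeq2, where 1 metallothionein was called. With a minimum size of change as well (1 on the log2 scale) there were 2999 genes, 1 member higher (MT1E), 0 lower, 1 metallothionein, 3 SLC30 genes, 1 SLC39 gene, 0 copper genes, 5 glucocorticoid-induced genes and 2 neighbours. A window of 1000 kb called 16 of 24 neighbours. With each library left out, 8944 to 9340 genes, 1 to 2 members higher, 1 to 2 lower and 1 to 3 metallothioneins were called. In these refits 3 uncalled log2 differences changed sign, from -0.10 to 0.29 for MT1X, from -0.12 to 0.13 for MT2A and from -0.035 to 0.027 for MTF1, while those of MT1G (0.19 to 0.43) and SLC39A10 (0.05 to 0.14) did not. The library whose absence moved a member's call is named in the report, and the cause was not tested.

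The labels do not say whether equal replicate numbers mark libraries made together. The correlations of same-numbered deviations were -0.003, 0.020 and 0.015, and not every library correlated best with its own number. Because libraries of a group differed so little (common biological coefficient of variation 2.2%), these correlations do not settle whether the libraries were paired. With the replicate block, 9642 genes were called, 9627 of them also without it, and MT1F had an adjusted p of 0.0015 in edgeR. Every metallothionein but MT2A had under 100 counts in each control library, which limits the precision of their folds, and for MT1M, with 1 to 9 counts per library, the filter left no fold to test, and without the filter the log2 difference was 0.90 ± 0.59 (SE; adjusted p = 0.254 in edgeR). No other scaling turned the direction of MT1E, MT1F, MT3 or SLC30A1.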

Other observations

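Among 11197 genes with a mean level high enough to compare, those whose log2 CPM followed MT2A most closely over the 6 libraries were MRPL54 (Pearson r = 0.990), a protein of the mitochondrial ribosome, MEPCE (0.985), the capping enzyme of 7SK RNA, RPLP1 (0.971), a protein of the cytosolic ribosome, WDR18 (0.955) and POLR1G (0.945), a subunit of RNA polymerase I. They are the highest of 11197 correlations over only 6 libraries, and 18 genes had an r above 0.9. Each of them, like MT2A, was not called and varied more among control than among OC2-OE libraries (for RPLP1, SD 67.8 and 13.1 CPM). These are descriptions with no test, and values of different genes come from the same 6 libraries and the same scaling. Of 9 metallothionein pseudogenes, 3 had counts and none passed the filter on low counts. MT1XP1 had 3, 4 and 5 counts in control and 2, 5 and 2 in OC2-OE.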
